A study of Homo sapiens with 6 samples.

Results

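Lysosomes are acidic compartments in which hydrolases break down proteins, glycans and lipids delivered by endocytosis and autophagy. Described here are 42 of the 34869 genes in the table, a fixed list of lysosomal genes taken by symbol. The list was set with earlier results of these data known. The list holds 19 hydrolases, 15 genes of the proton pump (the V-ATPase), 6 membrane proteins and 2 cofactor precursors. RNA was sequenced from NCI-H295R, an established human adrenocortical carcinoma line that makes adrenal steroids. The shTPD52 cells had received, by lentivirus, an shRNA (a short hairpin RNA that silences a gene) directed at TPD52, and the shCtrl cells a non-targeting shRNA by the same route. Both groups were grown in DMEM/F12 with serum and insulin-transferrin-selenium. There were 3 libraries in each group. The sources used here do not give the hairpin sequences, how many hairpins there were or the time after transduction, and nothing in them says that the libraries came from separate cultures.

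The pump works at the lysosomal membrane. Its V1 part lies in the cytosol and splits ATP, its V0 part lies in the membrane and carries protons, and accessory proteins help in its assembly and delivery. Hydrolases are made in the endoplasmic reticulum, sorted in the Golgi mainly by mannose 6-phosphate tags, and work best at the acid pH that the pump sets. In steroid-making cells lysosomes are also where cholesterol esters taken up in lipoproteins are split, so that free cholesterol can leave for other membranes. The transcription factor TFEB and its relatives bind an E-box in many lysosomal promoters, with the letters TCACGTGA, whose inner letters CACGTG are called the core here.

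That E-box is shown first. It is already known from many lysosomal promoters, so a higher share in a list of lysosomal genes could be foreseen. The shares below describe the list and are not a finding of these data. RefSeq promoters, 250 bases before to 50 after a gene's start on GRCh38.p14, were matched by symbol for 30 of the 42 genes. Both motifs are palindromes, so a match holds for both strands, and the longer motif contains the core. The core was found in 11 of the 30 promoters (36.7%), against 7.26% of all 35116 promoters and 10.3% of the 8853 promoters of tested genes. The longer motif was found in 7 of the 30 (23.3%), against 0.98% of all promoters and 2.08% of those of tested genes. The hydrolases had the core in 4 of 14 promoters and the pump genes in 3 of 10. The promoters of LAMP1 and GAA, both lower in shTPD52 cells, CD63, higher in shTPD52 cells, and ATP6V0D1, a pump subunit that did not pass the test, are printed 5′ to 3′ on the strand of the gene, with each copy of the core in capitals.
LAMP1 (chr13:113296989-113297288, plus strand): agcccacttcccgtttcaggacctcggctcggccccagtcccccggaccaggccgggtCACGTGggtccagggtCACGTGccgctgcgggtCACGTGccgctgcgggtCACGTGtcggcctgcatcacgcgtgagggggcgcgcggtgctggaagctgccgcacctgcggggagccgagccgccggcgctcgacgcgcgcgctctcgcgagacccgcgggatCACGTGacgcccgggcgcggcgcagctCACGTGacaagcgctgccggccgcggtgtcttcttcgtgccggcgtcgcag
GAA (chr17:80101331-80101630, plus strand): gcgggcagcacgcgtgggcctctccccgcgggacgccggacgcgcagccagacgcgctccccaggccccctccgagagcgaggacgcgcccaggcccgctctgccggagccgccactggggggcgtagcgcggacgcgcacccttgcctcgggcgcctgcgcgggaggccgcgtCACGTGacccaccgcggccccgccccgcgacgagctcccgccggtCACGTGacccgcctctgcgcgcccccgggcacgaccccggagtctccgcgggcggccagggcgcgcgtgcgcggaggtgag
CD63 (chr12:55728960-55729259, minus strand): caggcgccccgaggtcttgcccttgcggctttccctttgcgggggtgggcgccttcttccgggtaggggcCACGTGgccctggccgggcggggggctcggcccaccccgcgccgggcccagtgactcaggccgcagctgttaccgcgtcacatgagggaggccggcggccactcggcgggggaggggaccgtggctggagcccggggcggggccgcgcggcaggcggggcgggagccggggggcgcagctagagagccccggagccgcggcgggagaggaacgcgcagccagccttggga
ATP6V0D1 (chr16:67481108-67481407, minus strand): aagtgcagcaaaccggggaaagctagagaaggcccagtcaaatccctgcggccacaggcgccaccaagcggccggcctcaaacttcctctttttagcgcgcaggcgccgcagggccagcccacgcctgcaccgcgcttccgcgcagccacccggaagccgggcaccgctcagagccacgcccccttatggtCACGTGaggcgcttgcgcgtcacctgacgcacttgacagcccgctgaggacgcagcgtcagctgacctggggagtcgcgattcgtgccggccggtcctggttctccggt
The LAMP1 window held 6 copies of the core, the GAA window 2, and the CD63 and ATP6V0D1 windows 1 each. CTSL, GRN and ATP6AP1, whose values are given further on, had windows without it. The core stood in 2 of the 4 matched promoters of genes called lower and in 1 of the 2 of genes called higher. The longer motif stood in 2 of those 4 and in 0 of those 2. PSAP, also called lower, had no matched promoter. The core was also present in genes that did not pass. Any relation of these letters to the direction of change was not tested. A match is a description of the letters and not evidence of binding.

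The library depth worked back from the FPKM values (reads scaled to gene length and library size) was 29544347 to 38396636 reads in shTPD52 and 30582690 to 36885543 reads in shCtrl. TPD52 stood at 0.630, 0.635 and 0.655 FPKM in shTPD52 replicates 1 to 3 and at 1.42, 1.18 and 1.29 FPKM in shCtrl replicates 1 to 3, so the hairpin's target was lower in every knockdown library. The means were 0.640 ± 0.013 FPKM in shTPD52 and 1.30 ± 0.12 FPKM in shCtrl (SD, n = 3 each). Its difference was -0.65 on the scale log2(FPKM + 0.5), which understates changes at such low levels (SE 0.14, adjusted p = 0.0218 in limma). The 9 adrenocortical markers summed to 479.5 to 492.4 FPKM in shTPD52 libraries and 432.5 to 457.1 FPKM in shCtrl libraries. Single markers went both ways, so the sum is not a uniform shift. The ratio of the shTPD52 mean to the shCtrl mean was 3.67 for HSD3B2 and 0.78 for CYP17A1. The 10 markers of leukocytes, endothelium, fibroblasts and chromaffin cells that were found in the table summed to 1.22 to 1.88 FPKM in shTPD52 and 1.07 to 1.68 FPKM in shCtrl, and 6 of them were at 0 in some library. Mitochondrially encoded genes took 22.1% ± 2.37 of reads in shTPD52 and 17.9% ± 0.53 in shCtrl (SD, n = 3 each), and the part of this shift in the results was not tested except by rescaling. On the first principal component shTPD52 replicate 2 stood at 0.29, between the other shTPD52 libraries at 27.3 and 35.3 and the shCtrl libraries at -24.1 to -16.4. In bulk RNA a smaller share of cells expressing a gene and less RNA per cell cannot be told apart.

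Of the 42 lysosomal genes, 39 reached a mean of 1 FPKM over the 6 libraries and were tested. Of these 39, 2 rose with the knockdown, 5 fell and 32 did not pass. The test was limma on log2(FPKM + 0.5), two-sided, with Benjamini-Hochberg adjustment over all 12782 tested genes and a threshold of 0.05. That is 17.9% of the lysosomal genes, against 18.3% of all tested genes. In each direction the share was also close to the background, with 5.1% of the lysosomal genes higher against 5.63% of all genes, and 12.8% lower against 12.7%. The median log2 fold change of the 39 was -0.11, and that of all tested genes was also -0.11. The share of called members was thus near that of the transcriptome around it, with single members changed in both directions. The risers were CD63 and CTSL, and the fallers were GAA, GRN, ATP6AP1, PSAP and LAMP1.

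**Figure D1:**
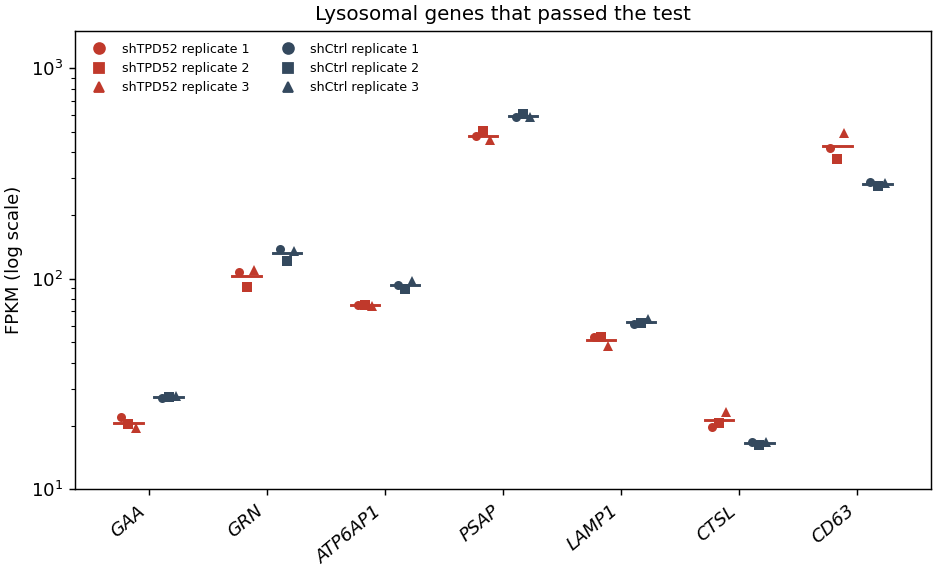
FPKM on a log scale for the 7 lysosomal genes that passed the test, in order of fold change, with one symbol per library and a line at each group mean (n = 3 each, shTPD52 in red, shCtrl in dark blue). The 3 shTPD52 libraries lie below the 3 shCtrl libraries for the first 5 genes and above them for CTSL and CD63.

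Among the membrane proteins, CD63 rose and LAMP1 fell. CD63 (ENSG00000135404, GRCh38 chromosome 12, 55725323 to 55729707, minus strand) encodes a tetraspanin of late endosomes, lysosomes and exosomes. It stood at 418, 370 and 492 FPKM in shTPD52 replicates 1 to 3 and at 290, 276 and 285 FPKM in shCtrl replicates 1 to 3. Every shTPD52 library was above every shCtrl library, and the knockdown libraries were more spread than the controls. The means were 427 ± 61.6 FPKM in shTPD52 and 284 ± 6.76 FPKM in shCtrl (SD, n = 3 each), a ratio of 1.51, and the difference was 0.58 on the log2 scale (SE 0.11, adjusted p = 0.0172 in limma). An annotated antisense gene, AC009779.2, overlaps CD63 and averaged 14.2 FPKM in shTPD52 and 9.70 FPKM in shCtrl. The sources used here do not state whether counting used strand, so reads of the pair cannot be told apart.

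LAMP1 (ENSG00000185896, chromosome 13, 113297241 to 113323672, plus strand), a heavily glycosylated protein that lines the lysosomal membrane, stood at 53.1, 52.9 and 47.9 FPKM in shTPD52 and at 61.3, 61.6 and 64.5 FPKM in shCtrl. The groups did not overlap, and the difference was -0.28 on the log2 scale (SE 0.075, adjusted p = 0.04 in limma). Its relative LAMP2, which also serves chaperone-mediated autophagy, averaged 10.0 ± 2.49 FPKM in shTPD52 and 11.2 ± 1.17 FPKM in shCtrl (n = 3 each). LAMP2 did not pass, with a log2 fold change of -0.17 (95% interval -0.55 to 0.21). SCARB2, the receptor that carries glucocerebrosidase to lysosomes, and MCOLN1, a calcium-releasing channel, did not pass either and had overlapping groups. Coding genes annotated on the same strand overlap MCOLN1 (PNPLA6), and likewise CTSD (AC068580.4), HEXA (AC009690.1) and GLB1 (TMPPE), so the levels of these 4 genes are uncertain.

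Among the proteases, CTSL rose and the other 5 tested genes did not pass. CTSL (ENSG00000135047, chromosome 9, 87725519 to 87731393, plus strand) encodes cathepsin L, a cysteine protease. It stood at 19.9, 20.7 and 23.4 FPKM in shTPD52 and at 16.9, 16.2 and 16.8 FPKM in shCtrl, with no overlap. Its difference was 0.35 on the log2 scale (SE 0.087, adjusted p = 0.034 in limma). The aspartic protease gene CTSD had nearly the same log2 fold change, 0.34, but not the call (95% interval -0.02 to 0.71). Its libraries were more spread. CTSD stood at 11.50, 7.57 and 10.96 FPKM in shTPD52, where replicate 2 was within the shCtrl values of 8.18, 6.96 and 7.93 FPKM. CTSF, another cysteine cathepsin, averaged 25.7 ± 1.62 FPKM in shTPD52 and 22.0 ± 0.89 FPKM in shCtrl (n = 3 each), with no overlap and no call (adjusted p = 0.0907 in limma). CTSB, the most abundant of the tested proteases, averaged 38.0 ± 2.39 FPKM in shTPD52 and 40.4 ± 1.61 FPKM in shCtrl and did not pass. TPP1, a peptidase that removes tripeptides, had overlapping groups, and CTSA, which shields beta-galactosidase and neuraminidase, was lower in every shTPD52 library without passing.

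Of the 8 glycosidase and sulfatase genes, GAA fell and 7 did not pass. GAA (ENSG00000171298, chromosome 17, 80101556 to 80119879, plus strand) encodes acid alpha-glucosidase, which breaks down lysosomal glycogen. It stood at 22.0, 20.5 and 19.6 FPKM in shTPD52 and at 27.1, 27.4 and 27.6 FPKM in shCtrl. The gap between the groups was wider than the spread within either, and the difference was -0.40 on the log2 scale (SE 0.077, adjusted p = 0.018 in limma). GLA, the alpha-galactosidase, went the other way in value, with 6.24 ± 0.35 FPKM in shTPD52 and 5.02 ± 0.34 FPKM in shCtrl (n = 3 each). It had no overlap and did not pass (adjusted p = 0.0677 in limma). ARSA, the sulfatase that acts on sulfatide, had a log2 fold change of -0.29 with no overlap and no call. The groups of GLB1, GUSB, HEXA, NAGLU and ARSB overlapped. HEXA encodes the alpha subunit of beta-hexosaminidase and had a log2 fold change of -0.13 (95% interval -0.41 to 0.16).

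None of the 4 lipid hydrolase genes passed the test. LIPA encodes lysosomal acid lipase, which splits cholesterol esters, and stood at 5.27, 7.58 and 6.65 FPKM in shTPD52 and at 6.23, 5.57 and 5.39 FPKM in shCtrl. Its groups overlapped, and its log2 fold change was 0.16 (95% interval -0.16 to 0.47). IFIT genes lie across it on the opposite strand, as CAP1 does for PPT1, and without a strand setting their reads cannot be told apart. The ceramidase gene ASAH1 and the sphingomyelinase gene SMPD1 were lower in every shTPD52 library. Their log2 fold changes of -0.36 and -0.22 did not pass. PPT1, a palmitoyl-protein thioesterase, had a log2 fold change of 0.01 (95% interval -0.16 to 0.17).

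Both cofactor precursors fell. PSAP (ENSG00000197746, chromosome 10, 71816298 to 71851375, minus strand) encodes prosaposin, cut into saposins that present sphingolipids to their hydrolases, and on the per-length FPKM scale it was the most abundant of the 42 genes. It stood at 479, 504 and 456 FPKM in shTPD52 and at 584, 607 and 590 FPKM in shCtrl, with no overlap. Its difference was -0.31 on the log2 scale (SE 0.076, adjusted p = 0.0325 in limma). GRN (ENSG00000030582, chromosome 17, 44345086 to 44353102, plus strand) encodes progranulin, which can travel to lysosomes bound to prosaposin. It stood at 108, 91.5 and 110 FPKM in shTPD52 and at 139, 122 and 136 FPKM in shCtrl. The groups did not overlap, and the difference was -0.36 on the log2 scale (SE 0.097, adjusted p = 0.0407 in limma).

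**Figure D2:**
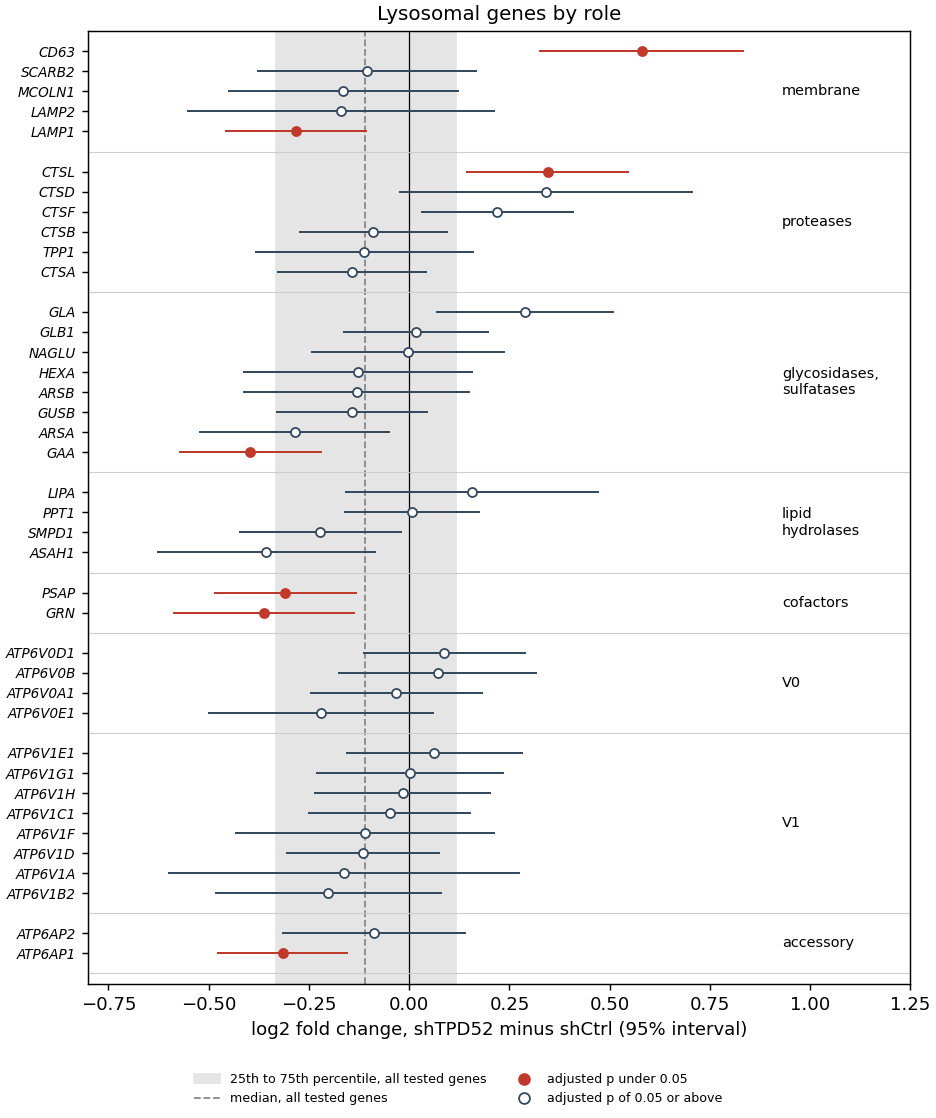
Log2 fold change (shTPD52 minus shCtrl) with its 95% interval for the 39 tested lysosomal genes, grouped by role, with filled red points for those that passed. The grey band runs between the quartiles of all tested genes (-0.33 to 0.12) and the dashed line marks their median of -0.11, with the point estimates of all 14 pump genes inside the band.

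Of the 14 tested pump genes, ATP6AP1 fell and 13 did not pass. ATP6AP1 (ENSG00000071553, chromosome X, 154428632 to 154436516, plus strand) encodes an accessory protein that takes part in V0 assembly. It stood at 75.03, 75.39 and 74.34 FPKM in shTPD52 and at 93.1, 89.4 and 97.7 FPKM in shCtrl. The groups did not overlap, and the difference was -0.32 on the log2 scale (SE 0.07, adjusted p = 0.0248 in limma). The other accessory protein gene, ATP6AP2, also known as the prorenin receptor, averaged 9.90 ± 1.13 FPKM in shTPD52 and 10.5 ± 0.15 FPKM in shCtrl (n = 3 each) and did not pass.

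None of the 12 tested V0 and V1 subunit genes passed (limma adjusted p from 0.214 to 0.993), and in all 12 the groups overlapped. Across all tested genes 42% had groups that did not overlap, and among the 18 tested hydrolases 8 did (44.4%). Point estimates of the 12 ran from -0.22 to 0.09 on the log2 scale. The 95% intervals differed in width between subunits. The narrowest interval, -0.30 to 0.08, was that of ATP6V1D, a subunit of the central stalk, at 9.38 ± 0.38 FPKM in shTPD52 and 10.2 ± 0.42 FPKM in shCtrl (n = 3 each). EIF2S1, at 14.3 FPKM in shTPD52 and 12.6 FPKM in shCtrl, lies across ATP6V1D on the opposite strand, and reads of the pair cannot be told apart. The widest interval, -0.60 to 0.28, was that of ATP6V1A, the catalytic subunit, which stood at 17.3, 24.7 and 14.0 FPKM in shTPD52 and at 19.2, 22.95 and 19.2 FPKM in shCtrl. In ATP6V1A shTPD52 replicate 2 was the highest of all 6 libraries while replicates 1 and 3 were the lowest. Without shTPD52 replicate 2, ATP6V1A and ATP6V1B2, the other subunit of the catalytic ring, were called lower (adjusted p in limma = 0.0376 and 0.047), in a fit that called 33% of all tested genes lower.

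Subunit levels differed far more than the groups did. Per gene length, V1 subunit RNA in shTPD52 cells was highest for ATP6V1F at 91.6 ± 16.9 FPKM, followed by ATP6V1G1 at 68.2 ± 4.68 and ATP6V1E1 at 48.2 ± 4.91 FPKM. It was lowest for ATP6V1B2 at 3.08 ± 0.46 FPKM (SD, n = 3 each). The order of these 4 was the same in shCtrl, at 98.1 ± 9.98, 68.3 ± 7.72, 46.1 ± 2.77 and 3.60 ± 0.18 FPKM. The order of ATP6V1F and ATP6V1G1 depends on gene length. ATP6V1G1 values gave whole reads at 3455 bases, while 1305 are annotated, and ATP6V1F values at 762, with 789 annotated. In reads ATP6V1G1 was the higher, at 7021 to 9155 per library against 1997 to 3214 for ATP6V1F. Among the tested V0 subunits ATP6V0E1 was highest, at 58.0 ± 8.14 FPKM in shTPD52 and 67.4 ± 7.03 FPKM in shCtrl. ATP6V0C, untested and of uncertain level, is not ranked. ATP6V0D1, which joins V0 to the central stalk, stood at 12.0 ± 0.85 FPKM in shTPD52 and 11.3 ± 0.43 FPKM in shCtrl.

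**Figure D3:**
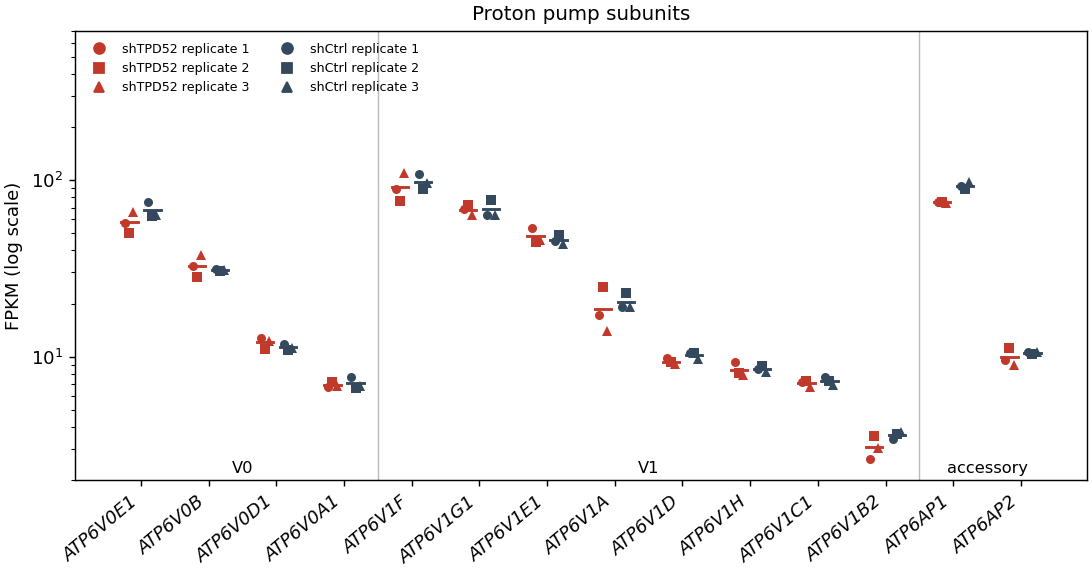
FPKM on a log scale for the 14 tested pump genes, ordered by mean level within V0, V1 and accessory proteins, with one symbol per library and a line at each group mean (n = 3 each, shTPD52 in red left of shCtrl in dark blue). The groups overlap for every gene but ATP6AP1, and levels span from about 3 FPKM for ATP6V1B2 to over 90 FPKM for ATP6V1F.

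Set side by side, the pump genes had a median log2 fold change of -0.07 and the 18 tested hydrolases one of -0.10. All 14 pump values lay between the quartiles of all tested genes, and 11 of the 18 hydrolase values did. After the length and GC correction 11 of the 14 pump values and 10 of the 18 hydrolase values lay between the quartiles of that fit, and the pump then ranged from -0.31 to 0.39 and the hydrolases from -0.21 to 0.42. Summed over their genes, pump FPKM were 452, 430 and 467 in shTPD52 and 497, 479 and 473 in shCtrl. These pump sums count ATP6V0C at the low and uncertain level given below. Hydrolase FPKM summed to 294.8, 295.2 and 307.3 in shTPD52 and 310.2, 291.3 and 311.1 in shCtrl. The pump sums did not overlap and the hydrolase sums did. Without ATP6AP1, left out after the sums were seen, the pump sums were 376.6, 354.8 and 392.2 FPKM in shTPD52 and 404.3, 390.0 and 375.6 FPKM in shCtrl, and these overlapped. The ratio of the sums was 1.53, 1.46 and 1.52 in shTPD52 and 1.604, 1.646 and 1.521 in shCtrl, and these overlapped.

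Of the 42 genes, 3 were too low to test. CTSZ, cathepsin Z, averaged 0.174 ± 0.024 FPKM in shTPD52 and 0.179 ± 0.037 FPKM in shCtrl. CLN3, a lysosomal membrane protein lost in a juvenile storage disease, averaged 0.069 ± 0.006 FPKM in shTPD52 and 0.092 ± 0.036 FPKM in shCtrl. ATP6V0C, the proteolipid of the proton-carrying ring, averaged 0.213 ± 0.174 FPKM in shTPD52 and 0.091 ± 0.043 FPKM in shCtrl (n = 3 each), from 2 to 21 reads per library. Other coding genes annotated on the same strand overlap CLN3 and ATP6V0C, so the levels of both are uncertain. The part of overlap in these levels was not tested.

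How the fold changes stood depended on scaling. Against the median of -0.11 over all tested genes, scaling by median ratios set that median to 0.00 and left 3 lysosomal genes higher (8.47% of all genes were called higher) and none lower (8.12% of all genes). The 3 were CD63, CTSL and GLA. Under that scaling GAA stood at -0.27 on the log2 scale (adjusted p = 0.0515 in limma), GRN -0.24, ATP6AP1 -0.19, PSAP -0.19 and LAMP1 -0.16. Quantile normalization put the median of all tested genes at -0.0069. It called 3 lysosomal genes higher and 5 lower, with 1152 and 1188 of the 12782 tested genes. With the dependence on gene length and GC content taken out of each library, 6 were higher (10.1% of all genes) and 2 were lower (9.75%). The 6 were CD63, CTSL, CTSD, CTSF, SCARB2 and ATP6V0D1, and the 2 were PSAP and GRN. GAA fell short there with -0.17 (adjusted p = 0.0789 in limma), and LAMP1 moved to -0.11 and ATP6AP1 to -0.16. CD63 kept its call under all scalings and corrections tried, with log2 fold changes from 0.33 to 0.71. Every one of the 7 calls was lost without any 1 shCtrl library, with limma adjusted p up to 0.0826 for CD63 and 0.159 for LAMP1. In those fits 50 to 184 genes were called higher and 43 to 272 lower over the whole table, while CD63 stood at 0.56 to 0.59 and LAMP1 at -0.30 to -0.26 on the log2 scale. All 7 were also lost without shTPD52 replicate 1, where 65 genes were called higher and 95 lower over the whole table. Without shTPD52 replicate 3 CD63 and GAA remained, with 314 higher and 574 lower over the whole table. Without shTPD52 replicate 2, 5 members were called higher and 9 lower, against 12.6% and 33% of all genes.

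**Figure D4:**
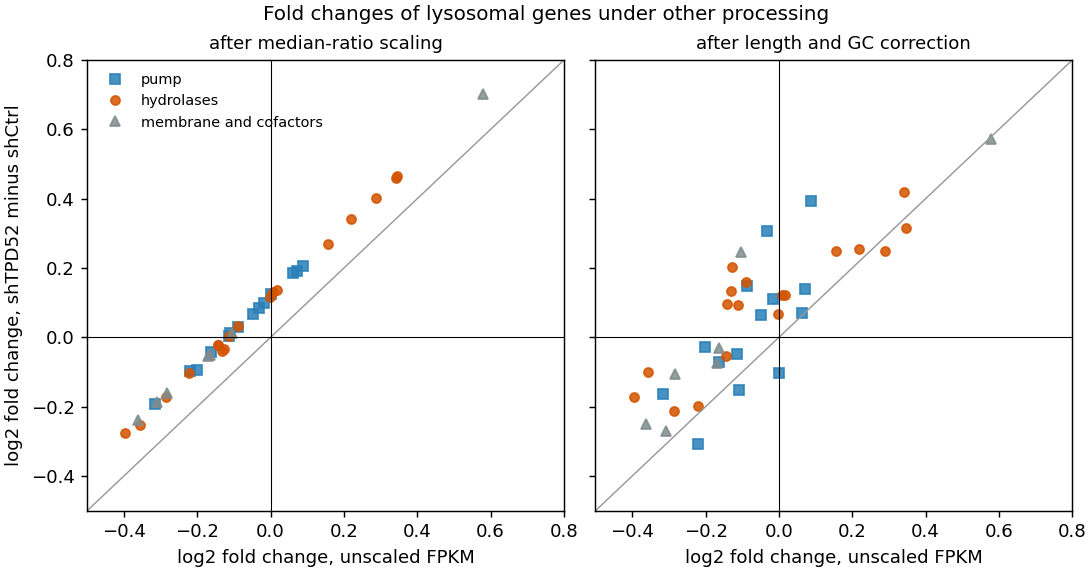
Log2 fold changes (shTPD52 minus shCtrl) of the 39 tested lysosomal genes after median-ratio scaling (left) and after length and GC correction (right), each against the value from unscaled FPKM, with squares for the pump, circles for hydrolases and triangles for membrane proteins and cofactors. Median-ratio scaling shifts all genes up by about the same amount, while the length and GC correction moves them unequally, with ATP6V0D1 going to 0.39 and ATP6V0E1 to -0.31.

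Other genes of the same pathway were counted from 4 further lists, also chosen with earlier results of these data known. Of 31 tested hydrolases and activators outside the 42, 1 rose (3.2%, against 5.63% of all tested genes), 7 fell (22.6%, against 12.7%) and 23 did not pass. The median log2 fold change was -0.19. With median-ratio scaling 4 were lower (8.12% of all tested genes), and without shTPD52 replicate 2 there were 16 (33% of all tested genes). Without any other single library 0 to 3 were lower, with 43 to 574 over all tested genes. SGSH, the heparan sulfamidase, fell to 7.28 ± 0.94 FPKM in shTPD52, against 12.48 ± 0.70 FPKM in shCtrl (adjusted p = 0.0104 in limma). EPDR1, a ganglioside-binding lysosomal protein, fell to 30.2 ± 2.88 FPKM in shTPD52, against 46.8 ± 1.09 FPKM in shCtrl (adjusted p = 0.00971 in limma). After the length and GC correction 1 gene of this list was called higher and 7 lower, against 10.1% and 9.75% of all tested genes. Of these 7, 5 were among the 7 that fell before it.

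Of 19 tested genes of lysosomal membrane transport, 1 rose (5.3%, against 5.63% of all tested genes) and 5 fell (26.3%, against 12.7%). With median-ratio scaling 3 were lower (8.12% of all tested genes), and without shTPD52 replicate 2 there were 6 (33% of all tested genes). Without any other single library 0 or 1 were lower, with 43 to 574 over all tested genes. CLCN7, the chloride-proton exchanger, had a log2 fold change of -0.56, NPC1, which exports cholesterol, one of -0.64, and TMEM175, a potassium and proton channel, one of -0.46 (adjusted p in limma = 0.013, 0.0208 and 0.0231). After the length and GC correction 2 genes of this list were higher and 3 lower, against 10.1% and 9.75% of all tested genes. Of the 5 that fell before it, 2 kept the call, NPC1 at -0.343 and TMEM175 at -0.338 (adjusted p in limma = 0.0281 and 0.0279). CLCN7 stood at -0.22 (adjusted p = 0.0529 in limma). Of 14 tested V-ATPase genes outside the 42, namely further isoforms, assembly factors and regulators, 1 rose and 1 fell, 7.1% each way, against 5.63% and 12.7% of all tested genes. Without shTPD52 replicate 2, 2 were higher and 5 lower, against 12.6% and 33% of all tested genes. Without any other single library 0 or 1 were higher and 0 lower, with 50 to 314 higher and 43 to 574 lower over all tested genes. VMA21, an assembly chaperone of V0 in the endoplasmic reticulum, rose to 29.2 ± 0.89 FPKM in shTPD52, against 21.2 ± 1.29 FPKM in shCtrl (adjusted p = 0.0144 in limma). DMXL2, a subunit of the rabconnectin complex that assembles V1 with V0, fell to 2.001 ± 0.87 FPKM in shTPD52, against 3.71 ± 0.15 FPKM in shCtrl (adjusted p = 0.041 in limma).

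Of 18 tested genes that sort proteins to lysosomes, 2 rose (11.1%, against 5.63% of all tested genes) and 5 fell (27.8%, against 12.7%). With median-ratio scaling 3 were lower (8.12% of all tested genes), and without shTPD52 replicate 2 there were 10 (33% of all tested genes). Without any other single library 0 or 1 were lower, with 43 to 574 over all tested genes. The adaptors GGA3 and GGA1, which load mannose 6-phosphate receptors at the Golgi, had log2 fold changes of -0.57 and -0.44, and AP1B1, a subunit of the AP-1 clathrin adaptor, had one of -0.40 (adjusted p in limma = 0.0117, 0.0221 and 0.0261). After the length and GC correction 1 sorting gene was higher and 1 lower, against 10.1% and 9.75% of all tested genes. GGA3 then stood at -0.32 and GGA1 at -0.08.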

How the data were processed

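RNA of 3 shTPD52 and 3 shCtrl libraries was deposited as FPKM, computed by the authors and scaled to gene length and library size. HISAT2 2.2.1, featureCounts 2.0.3 and GRCh38 are listed, per the submitters' processing notes, without their roles. The sources used here do not state the annotation, filters or strand setting. Identifiers were matched to GENCODE release 29 and a gene name table (34864 of 34869 matched). Depth was worked back from the step that 1 read makes in low FPKM values. The annotated gene length gave whole reads for 55.2% of genes. For 14169 genes another length that gave whole reads was found by search, and for 1465 none was found. Reads per gene, mitochondrial shares and limma-voom rest on these lengths and share their uncertainty. The length and GC correction used the annotated lengths, which may differ from those behind the FPKM. Odd counts made up 26.9% to 30.0% of those from 1 to 20, so both mates of a pair may have been counted.

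The 12782 genes whose mean reached 1 FPKM were fitted with limma 3.58.1 (R 4.3.3) on log2(FPKM + 0.5), a scale that understates changes of low genes, with an intensity trend, two-sided, Benjamini-Hochberg adjusted, threshold 0.05. Since no source says that the libraries are separate cultures, p-values reflect the spread among these libraries, which may be technical. Alternatives were pseudocounts of 0.1 and 1, no filter or 5 FPKM, median-ratio, quantile and non-mitochondrial scaling, no variance trend, a replicate block, loess length and GC correction (span 0.3), limma-voom on reads worked back from FPKM, with median-ratio library sizes, and leaving out each library. TPD52 lies under the filter and was added to its own fit. Full values are given for all members that passed, and means for a set list of others; genes outside that list were named after their values were seen. From each further list the up to 3 passing genes with the smallest p are named, apart from 1 that is not reported here. Members and lists were chosen with earlier results of these data known. Intervals are 95% and come from the fit.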

Additional observations from a re-analysis of the deposited data

How the results depend on the processing

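The 7 called members kept their sign in all 17 alternatives. Of 658 values of single members under the alternatives, 518 kept direction and call, 60 lost the call, 15 gained it with the same sign and 65 changed sign. None that changed sign had been called, and 1 of them, SCARB2 after the length and GC correction, then passed (0.25, adjusted p = 0.0433 in limma). The cause of these shifts was not tested.

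Members called higher and lower numbered 0 and 1 without a filter, 1 and 2 without the variance trend, and 3 and 0 with median-ratio scaling. They numbered 3 and 5 with quantile normalization and 3 and 1 with scaling to reads outside mitochondrial genes. After the length and GC correction they were 6 and 2, and with limma-voom 4 and 1. Over all genes the calls higher and lower were 177 and 354 without a filter, 1083 and 1038 with median-ratio scaling, 1152 and 1188 with quantile normalization, 1288 and 1239 after the length and GC correction, 1326 and 1393 with limma-voom, 976 and 1213 with scaling to reads outside mitochondrial genes, and 599 and 1402 without the variance trend. Leaving out 1 library gave 0 to 5 members higher and 0 to 9 lower, with 50 to 1611 and 43 to 4211 over all genes. Both highest pairs came without shTPD52 replicate 2. No member was called without any 1 shCtrl library, where 50 to 184 genes were higher and 43 to 272 lower over all genes. None was called without shTPD52 replicate 1 either, with 65 and 95 over all genes.

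The hydrolase median was 0.0023 with a filter of 5 FPKM, 0.019 with median-ratio, -0.0057 with quantile and -0.027 with non-mitochondrial scaling, 0.12 after the length and GC correction, 0.020 with limma-voom, and -0.13 to -0.043 leaving out 1 library. The pump median was 0.048, 0.022, 0.0041, 0.018 and 0.052 with median-ratio, quantile and non-mitochondrial scaling, the length and GC correction and limma-voom, in that order, and -0.083 to -0.023 leaving out 1 library. Pump minus hydrolases was 0.03 as reported, -0.051 with a filter of 5 FPKM, -0.10 after the length and GC correction, and -0.0023 to 0.078 leaving out 1 library, negative without shCtrl replicate 3 or shTPD52 replicate 1 and highest without shTPD52 replicate 3. TPD52 lost its call without a filter (-0.65, adjusted p = 0.067 in limma), with a filter of 5 FPKM (-0.65, adjusted p = 0.0616 in limma), with length and GC content corrected (-0.50, adjusted p = 0.0788 in limma), and without any 1 library but shTPD52 replicate 2 (-0.70 to -0.60).

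Log2 fold changes that changed sign were, with median-ratio scaling, SCARB2 0.012, CTSB 0.033, TPP1 0.0041, NAGLU 0.12, ATP6V0A1 0.083, ATP6V1C1 0.066, ATP6V1D 0.0034, ATP6V1F 0.013, ATP6V1H 0.10, ATP6AP2 0.030. With quantile normalization they were SCARB2 0.027, TPP1 0.023, NAGLU 0.074, PPT1 -0.050, ATP6V0A1 0.10, ATP6V1C1 0.087, ATP6V1D 0.0089, ATP6V1G1 -0.087, ATP6V1H 0.11, ATP6AP2 0.034. With non-mitochondrial scaling they were NAGLU 0.072, ATP6V0A1 0.040, ATP6V1C1 0.023, ATP6V1H 0.057. After the length and GC correction they were SCARB2 0.25, CTSA 0.096, CTSB 0.16, TPP1 0.094, HEXA 0.20, NAGLU 0.067, ARSB 0.13, ATP6V0A1 0.31, ATP6V1C1 0.065, ATP6V1G1 -0.10, ATP6V1H 0.11, ATP6AP2 0.15. With limma-voom they were SCARB2 0.014, CTSB 0.034, TPP1 0.0051, NAGLU 0.11, ATP6V0A1 0.090, ATP6V1C1 0.072, ATP6V1D 0.0030, ATP6V1F 0.012, ATP6V1H 0.10, ATP6AP2 0.033. Leaving out 1 library, ranges that crossed 0 were ATP6V0A1 -0.069 to 0.026, ATP6V0B -0.030 to 0.17, ATP6V1A -0.38 to 0.020, ATP6V1E1 -0.019 to 0.11, ATP6V1F -0.25 to 0.013, ATP6V1G1 -0.044 to 0.092, ATP6V1H -0.088 to 0.025, GLB1 -0.028 to 0.054, NAGLU -0.073 to 0.066, PPT1 -0.018 to 0.048.

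The labels give both groups replicate numbers 1 to 3, and deviations of same-numbered libraries correlated at 0.045, 0.248 and 0.022. Replicates 1 and 2 of shTPD52 correlated best with the same-numbered shCtrl library, and replicate 3 with shCtrl replicate 1 (0.283). Pairing thus stayed uncertain, and the numbers were not taken as pairs. With the replicate block 2 members were called higher and 4 lower, LAMP1 losing its call (adjusted p = 0.0553 in limma). Over all genes the block fit called 906 higher and 2158 lower, against 720 and 1621 without the block. CD63 rests on 20467 to 45791 reads per library and ARSB, the tested member with the fewest, on 357 to 528.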
